A study of Homo sapiens with 4 samples.

Results

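HSP90 is a family of chaperones that bind proteins late in folding and release them in a cycle driven by ATP. The family has separate genes for the cytosol, the endoplasmic reticulum and mitochondria, and the cytosolic proteins work with co-chaperones that set the pace of the cycle or bring in particular clients. HSP70 acts upstream of HSP90 on many of the same clients, and plasma cells, which secrete large amounts of antibody, depend heavily on chaperones. The genes described here are the 4 HSP90 paralogs and 6 of their co-chaperones, 10 of the 16057 genes in the deposited table, found by gene symbol with 1 row each. The paralogs are HSP90AA1 and HSP90AB1 of the cytosol, HSP90B1 of the endoplasmic reticulum and TRAP1 of mitochondria. The co-chaperones, all of the cytosol, are AHSA1, STIP1, CDC37, PTGES3, FKBP4 and CHORDC1.

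The cells were MM.1S, an established human multiple myeloma line, so all libraries share 1 genetic background. One group was exposed to JG342, an allosteric HSP70 inhibitor, at 350 nM and the other to DMSO, its solvent, both for 26 h. Each treatment has 2 libraries of total RNA, described as biological duplicates. The comparison asks how HSP90 transcripts of each compartment stood when HSP70 was inhibited.

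Values are TPM, reads per transcript length scaled to a constant library total, and the 4 libraries summed to between 994463 and 994718. TPM keeps no read depth, so no counting interval is given. All 11 listed plasma cell markers were fitted, of which 3 rose and 2 fell, beside 10.8% higher and 7.62% lower over all fitted genes. The 11 markers summed to 15119 and 14841 TPM with DMSO and to 10946 and 10258 TPM with JG342. JCHAIN, the joining chain of antibodies, fell by more than this whole difference, so the other markers together did not fall. It stood at 9907 and 10384 TPM with DMSO and at 5732 and 5431 TPM with JG342. The part of these markers in the results below was not tested. Of 15 listed markers of other cell types 11 were in the table, and they summed to 58.4 and 67.4 TPM with DMSO and 67.9 and 60.1 TPM with JG342.

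After JG342 the cytosolic HSP90 genes and most of the co-chaperones were lower. The endoplasmic reticulum and mitochondrial paralogs did not pass the test and differed in direction, at log2 fold changes of 0.14 and −0.26. Of the 10 genes, 7 fell and none rose at a limma adjusted p under 0.05, with 7.62% of the 12042 fitted genes lower and 10.8% higher. All 7 belong to the 8 cytosolic genes, and CDC37 is the cytosolic gene that did not pass. In 9 of the 10 genes both JG342 libraries lay below both DMSO libraries, which held for 28.2% of fitted genes. In bulk RNA, fewer cells with a transcript and less of it per cell cannot be told apart. In HSP90B1 both JG342 libraries lay above both DMSO libraries, and the share of fitted genes with this pattern was not computed. The median log2 fold change was −0.44 over the 10 genes and 0.03 over all fitted genes. When DMSO replicate 1 was left out 3 of the 7 calls were made (HSP90AA1, AHSA1 and FKBP4), and without DMSO replicate 2 also 3 (HSP90AA1, AHSA1 and CHORDC1). All 10 genes kept the sign of their change under each of the 13 alternatives.

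**Figure D1:**
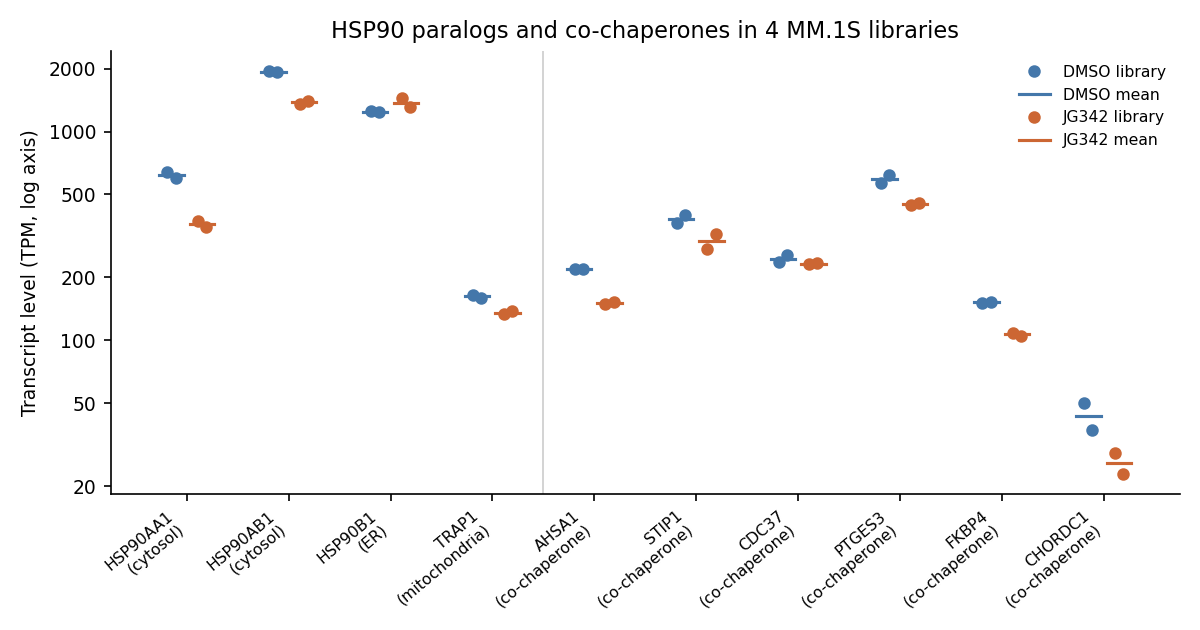
Transcript level in TPM on a log axis for each of the 10 genes. Points are single libraries and short lines the mean of 2 libraries, DMSO in blue and JG342 in orange. HSP90AB1 stood highest in DMSO, at 1954 and 1926 TPM, and met HSP90B1 in JG342, and the JG342 points lie below the DMSO points for every gene except HSP90B1.

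HSP90AA1, the stress-inducible cytosolic paralog, had the largest log2 change of the 10 genes, although that of CHORDC1 was larger after quantile normalization, without DMSO replicate 2 and without JG342 replicate 1. It stood at 643 and 600.2 TPM in the DMSO libraries and at 375 and 349 TPM in the JG342 libraries. The groups lay far apart, and the mean fell by 41.7%. On the log2(TPM + 1) scale, which serves for every fold change below, the difference was −0.78 ± 0.09 SE (n = 2 per treatment, limma adjusted p 0.00123). Only 1.09% of fitted genes had a lower value, and HSP90AA1 passed under all 13 alternatives.

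HSP90AB1, the constitutive cytosolic paralog, was the most abundant of the 10 genes and fell less. Its levels were 1954 and 1926 TPM with DMSO and 1360.1 and 1409 TPM with JG342. The libraries of each treatment lay close together and the treatments did not overlap. Its mean fell by 28.6%, a log2 fold change of −0.49 with an SE of 0.09 (limma adjusted p 0.00776). Without DMSO replicate 1 or 2 the limma adjusted p was 0.0681 or 0.0721. Among all 16057 genes it ranked 69 by mean level with DMSO and 96 with JG342.

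HSP90B1, which encodes endoplasmin, the paralog that folds integrins and Toll-like receptors in the endoplasmic reticulum, did not fall. It stood at 1249 and 1242 TPM with DMSO and at 1441 and 1316 TPM with JG342. Both JG342 libraries were higher, but JG342 replicate 2 lay nearer to the DMSO libraries than to JG342 replicate 1. This log2 difference of 0.14 (SE 0.09, 95% interval from −0.06 to 0.35) did not pass (limma adjusted p 0.309).

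TRAP1, the mitochondrial paralog, was the least abundant of the 4. Its levels were 165 and 160.1 TPM with DMSO and 134 and 137 TPM with JG342, with no overlap. Its log2 fold change of −0.26 (SE 0.09) did not pass (limma adjusted p 0.0806), although its 95% interval, from −0.46 to −0.05, is not adjusted for the number of genes and lies below 0. After scaling the libraries to equal medians the limma adjusted p was 0.0495.

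**Figure D2:**
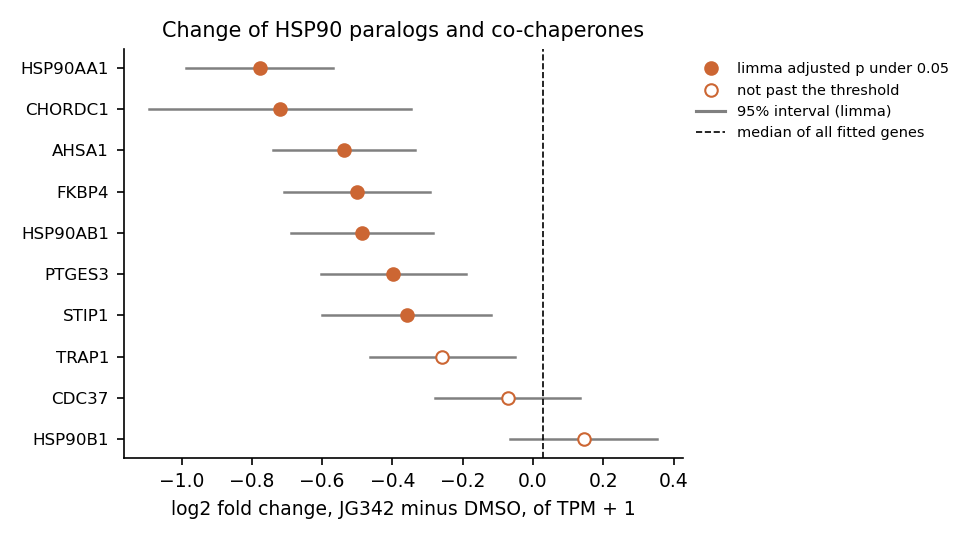
Log2 fold change of TPM + 1, JG342 minus DMSO, for the 10 genes in order of size, with 95% intervals from limma. Filled points passed an adjusted p of 0.05 and open points did not, and the dashed line is the median of all fitted genes, 0.03. The 7 filled points run from −0.78 for HSP90AA1 to −0.36 for STIP1, and TRAP1, CDC37 and HSP90B1 are open.

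The make-up of the summed HSP90 transcripts restates the levels above as sums and shares, and differences between the shares were not tested. HSP90AA1 and HSP90AB1 together summed to 2597 and 2526 TPM with DMSO and to 1735 and 1758 TPM with JG342, so the mean of the cytosolic sum fell by 31.8%. HSP90B1 made up 31.1% and 31.6% of the summed TPM of the 4 paralogs with DMSO and 43.5% and 41.0% with JG342. HSP90AB1 made up 48.7% and 49.0% with DMSO and 41.1% and 43.9% with JG342. With DMSO, HSP90AB1 stood 1.56-fold above HSP90B1. With JG342 their means were 1384 and 1378 TPM and their libraries overlapped. Within the cytosolic pair the HSP90AA1 share was 24.8% and 23.8% with DMSO and 21.6% and 19.9% with JG342.

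**Figure D3:**
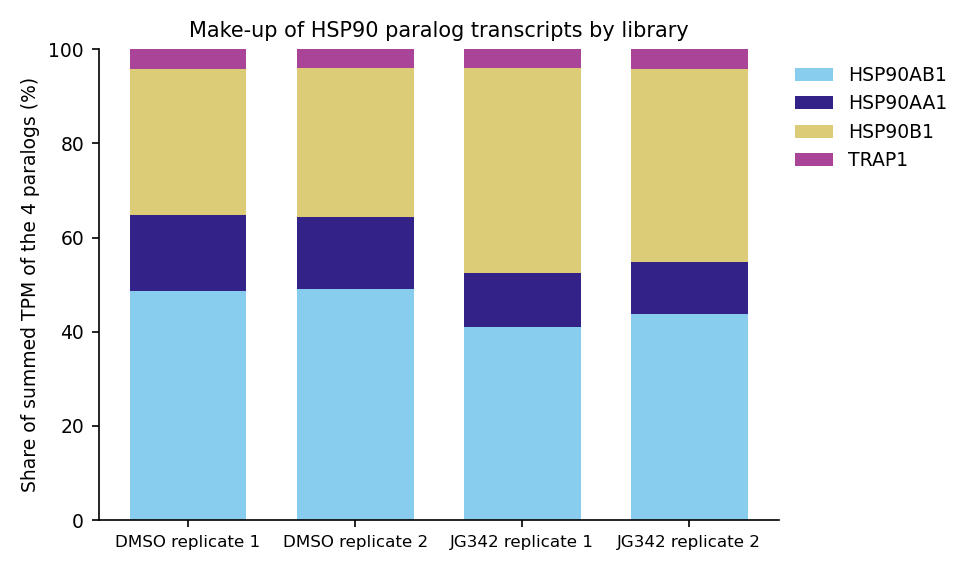
Share of each paralog in the summed TPM of the 4 paralogs, in percent, 1 bar per library. The HSP90B1 part is taller in the JG342 bars, at 43.5% and 41.0%, than in the DMSO bars, at 31.1% and 31.6%, and TRAP1 holds between 4.04% and 4.28% in every bar.

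Ratios of 2 paralogs within a library do not depend on the scaling between libraries. The log2 ratio of HSP90AA1 to HSP90B1 was −0.96 and −1.05 with DMSO and −1.94 and −1.91 with JG342, a difference of −0.92. The log2 ratio of HSP90AB1 to HSP90B1 differed by −0.63 between treatments, and that of HSP90AA1 to HSP90AB1 by −0.29. Relative to TRAP1, HSP90AA1 differed by −0.52, HSP90AB1 by −0.23 and HSP90B1 by 0.41. In each of the 6 pairs the treatments did not overlap. Each gave an exact two-sided permutation p of 0.333, also after adjustment over the 6 pairs, which is the smallest p that 2 libraries against 2 allow.

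Promoter sequences are shown for the 3 genes with a heat shock element and for HSP90B1, because the cytosolic paralogs and HSP90B1 differ in the elements their promoters hold. Heat shock elements are bound by HSF1, the factor that drives cytosolic chaperone genes, and ER stress response elements by factors of the unfolded protein response. The search covered both strands from 250 bases before to 50 after each RefSeq gene start (GRCh38.p14), and 9 of the 10 genes, with 14 starts, were found there. FKBP4 was not among them. The heat shock element was searched as GAANNTTCNNGAA, and 0.490% of the 35116 promoters held it. The ER stress response element was searched as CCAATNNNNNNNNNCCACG, and 0.0769% held it. Capitals mark the matches, and the sequences read 5′ to 3′ on the strand of the gene.
HSP90AA1, chr14:102087100-102087152, minus strand: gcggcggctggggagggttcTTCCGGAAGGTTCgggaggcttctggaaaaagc
HSP90AB1, chr6:44247758-44247863, plus strand: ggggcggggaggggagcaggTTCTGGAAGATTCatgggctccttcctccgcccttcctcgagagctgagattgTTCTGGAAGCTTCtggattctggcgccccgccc
CHORDC1, chr11:90223067-90223129, minus strand: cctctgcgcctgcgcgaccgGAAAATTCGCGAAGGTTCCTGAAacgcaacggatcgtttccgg
HSP90B1, chr12:103930196-103930359, plus strand: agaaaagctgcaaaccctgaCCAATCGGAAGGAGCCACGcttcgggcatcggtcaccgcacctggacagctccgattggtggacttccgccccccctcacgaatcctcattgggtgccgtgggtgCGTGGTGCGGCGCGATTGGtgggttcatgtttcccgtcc

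HSP90AA1 held 1 heat shock element, starting 88 bases before the gene start, in 1 of its 2 listed promoters. HSP90AB1 held 2, at 165 and 112 bases, in 1 of its 3 listed promoters. CHORDC1 held 3 overlapping matches in a single run that starts 60 bases before the gene start. HSP90B1 held 2 ER stress response elements, the second on the opposite strand. No heat shock element of this form was found in the windows of HSP90B1, TRAP1, AHSA1, STIP1, CDC37 or PTGES3, and AHSA1, STIP1 and PTGES3 fell as well. Over all fitted genes, 43 had a promoter with the heat shock element, of which 8 fell and 3 rose, with a median log2 fold change of −0.10. The 8 include HSP90AA1, HSP90AB1, CHORDC1 and the HSP70 system genes HSPA8, DNAJA1 and DNAJB6. The calls of HSPA8, DNAJA1 and DNAJB6 were each lost without the filter on low values, without the trend and without either DMSO library. HSPD1, a listed mitochondrial matrix gene, also holds the element but changed by 0.04 and did not pass (limma adjusted p 0.767). Of 17 fitted genes with the ER stress response element 6 rose and none fell, with a median of 0.18. HSPA5 and CRELD2 are among the 6. HSP90B1, PDIA6, CALR, CANX and XBP1 also hold the element and did not pass. Their log2 fold changes were 0.14, −0.10, −0.33, 0.08 and 0.12. Among all 9617 fitted genes with a listed promoter 7.71% fell and 10.5% rose. These shares are descriptions without a test. The heat shock element share counts HSP90AA1, HSP90AB1, CHORDC1, HSPA8, DNAJA1 and DNAJB6 again, so it adds no separate evidence about them. The ER stress response element share likewise counts HSPA5 and CRELD2, which are also among the endoplasmic reticulum chaperones that rose. The RefSeq mRNA named for each gene was not matched to its listed starts. The sources used here do not otherwise say from which start the transcripts came.

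Of the 6 co-chaperones 5 fell. AHSA1, which stimulates the ATPase of HSP90, stood at 219.23 and 219.15 TPM with DMSO and at 149 and 152 TPM with JG342. Its libraries agreed closely within each treatment. AHSA1 had a log2 fold change of −0.54 with an SE of 0.09 (limma adjusted p 0.00525) and passed under all 13 alternatives.

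FKBP4, a peptidyl-prolyl isomerase of steroid receptor complexes, stood at 151 and 152 TPM with DMSO and at 108 and 105 TPM with JG342. The treatments lay well apart. FKBP4 changed by −0.50 (SE 0.09) on the log2 scale, with a limma adjusted p of 0.00782, or 0.0603 without DMSO replicate 2.

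CHORDC1, an HSP90-binding protein with zinc-binding domains, was the least abundant of the 10 genes and had the largest SE on the log2 scale. Its levels were 49.8 and 37.0 TPM with DMSO and 28.7 and 22.9 TPM with JG342. The treatments did not overlap, although the DMSO libraries differed from each other by more than DMSO replicate 2 differed from JG342 replicate 1. CHORDC1 had a log2 fold change of −0.72 with an SE of 0.16, which passed (limma adjusted p 0.0182). It did not pass without DMSO replicate 1 (limma adjusted p 0.119), JG342 replicate 2 (0.0539), the filter on low values (0.0984) or the mean-variance trend (0.0530).

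PTGES3, which binds the ATP-bound closed form of HSP90 and slows its cycle, was the most abundant of the 6. It stood at 569 and 619 TPM with DMSO and at 446 and 455 TPM with JG342. Both JG342 libraries were lower than either DMSO library. PTGES3 changed by −0.40 (SE 0.09) on the log2 scale, with a limma adjusted p of 0.0180.

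STIP1, the adaptor that joins HSP70 to HSP90, stood at 366 and 399 TPM with DMSO and at 275 and 323 TPM with JG342. The libraries differed within each treatment but did not overlap. Its log2 change of −0.36 (SE 0.11) passed narrowly (limma adjusted p 0.0468). The calls of PTGES3 and STIP1 were lost without the filter on low values (limma adjusted p 0.0598 and 0.122), without the mean-variance trend (0.0727 and 0.125) and without DMSO replicate 1, DMSO replicate 2 or JG342 replicate 1, and that of STIP1 also after quantile normalization (0.0751).

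CDC37, which brings protein kinases to HSP90, was the co-chaperone with the smallest difference. Its levels were 236 and 255 TPM with DMSO and 231 and 235 TPM with JG342, so that the nearest libraries of the 2 treatments almost met. CDC37 changed by −0.07 on the log2 scale, with a 95% interval from −0.28 to 0.14 (limma adjusted p 0.622).

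Co-chaperone levels can be set against the cytosolic pair in the same library. AHSA1 stood at 8.44 and 8.68 TPM per 100 TPM of HSP90AA1 plus HSP90AB1 with DMSO and at 8.58 and 8.66 with JG342, so the treatments overlapped. FKBP4 also overlapped, at 5.82 and 6.03 with DMSO and 6.25 and 5.99 with JG342. CDC37 stood at 9.08 and 10.09 with DMSO and at 13.3 and 13.4 with JG342, with no overlap. PTGES3 was at 21.9 and 24.5 with DMSO and at 25.7 and 25.9 with JG342, again with no overlap. Differences between these ratios were not tested.

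The order of levels with DMSO was HSP90AB1, HSP90B1, HSP90AA1, PTGES3, STIP1, CDC37, AHSA1, TRAP1, FKBP4 and CHORDC1. HSP90AA1 and PTGES3 were the only neighbours in that order whose libraries overlapped. With JG342 PTGES3 stood above HSP90AA1, and HSP90AB1 and HSP90B1 were the only neighbours that overlapped. The other places were the same.

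Some reads may belong to other genes. HSP90AA1 matched its pseudogene HSP90AA2P at 97.1% identity over 62.6% of its transcript, and HSP90AB1 matched HSP90AB3P at 97.1% over 84.2%. PTGES3 and CHORDC1 also have pseudogenes, at 98.4% identity over 36.9% and 96.5% over 41.1%, so the values of these 4 genes are uncertain to that extent. AHSA1, HSP90B1 and TRAP1 overlap a listed gene on the opposite strand, VIPAS39, C12orf73 and DNASE1. The sources used here do not state whether strand was counted. HSP90AA1 overlaps WDR20 in this way, HSP90B1 also TTC41P, and FKBP4 and CHORDC1 overlap genes annotated on the opposite strand, whose levels were not analysed here. The measured partners stood at most at 12.6 TPM for VIPAS39, 28.3 TPM for C12orf73 and 7.43 TPM for DNASE1.

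Other proteins of the HSP90 cycle were listed as well. Of 29 further co-chaperones, all fitted, 2 fell and none rose, beside 7.62% lower and 10.8% higher over all fitted genes, so the count of lower genes was near the background. Their median log2 fold change was −0.06. FKBP5, a close relative of FKBP4 in steroid receptor complexes, fell from 51.0 and 52.0 TPM to 31.8 and 32.0 TPM, a log2 fold change of −0.68 with an SE of 0.11 (limma adjusted p 0.00401). PPP5C, a phosphatase that docks on HSP90, fell from 115 and 122 TPM to 79.4 and 82.7 TPM, a log2 fold change of −0.54 with an SE of 0.10 (limma adjusted p 0.00734). FKBP5 passed under all 13 alternatives, and PPP5C did not pass without DMSO replicate 2. CNPY3, the co-chaperone of HSP90B1 for Toll-like receptors, stood at 81.9 and 83.7 TPM with DMSO and at 95.7 and 112 TPM with JG342. CNPY3 changed by 0.32 (SE 0.11) on the log2 scale and did not pass (limma adjusted p 0.0731). ST13, which binds HSP70 alongside STIP1, had a log2 fold change of −0.05 (limma adjusted p 0.765).

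**Figure D4:**
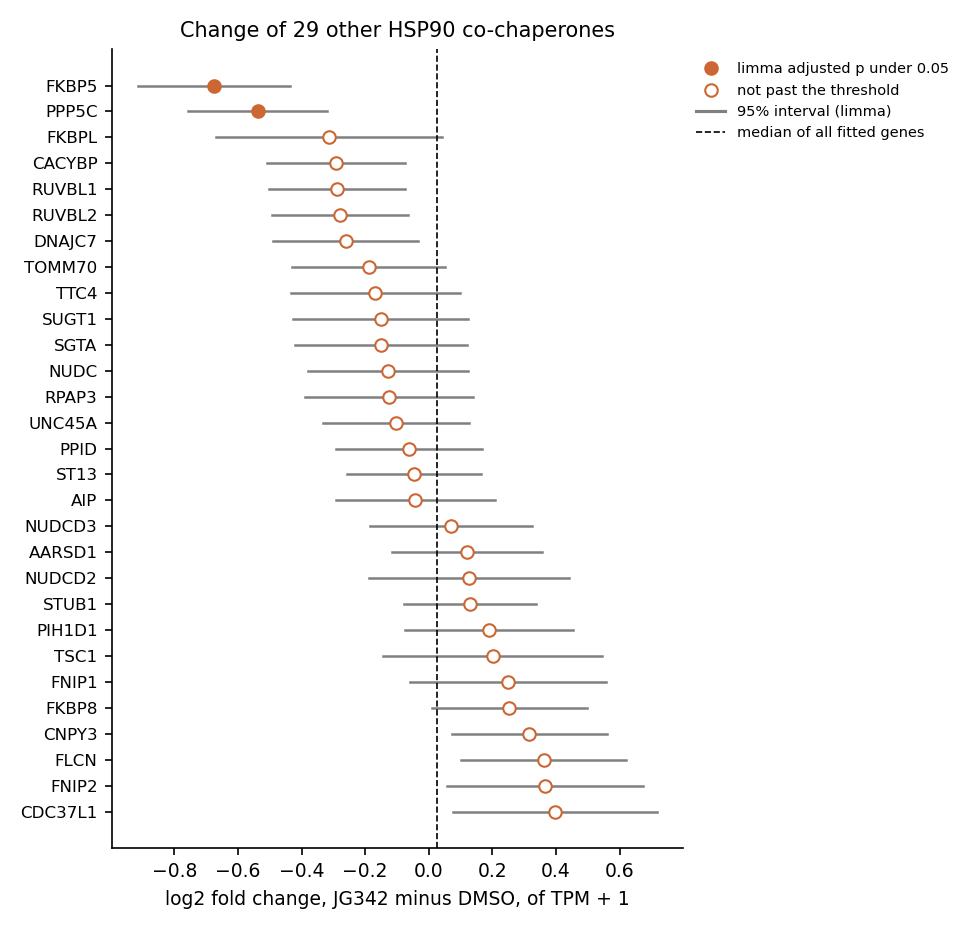
Log2 fold change of TPM + 1, JG342 minus DMSO, for 29 other HSP90 co-chaperones in order of size, with 95% intervals from limma. FKBP5 and PPP5C, the filled points at −0.68 and −0.54, passed an adjusted p of 0.05, and the others lie between −0.31 and 0.40.

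Chaperones that share a compartment with a paralog were listed by compartment, beside 10.8% higher and 7.62% lower over all fitted genes. Of 14 listed genes of the cytosolic HSP70 system 8 fell and none rose, with a median log2 fold change of −0.40. HSPB1, counted among the 8, is a small heat shock protein and not part of the HSP70 system in the strict sense. HSPB1 changed by −0.85 (limma adjusted p 0.00127). HSPH1, a nucleotide exchange factor of HSP70, changed by −0.71 and DNAJA1, a J-domain partner of HSP70, by −0.56 (limma adjusted p 0.00595 and 0.0176). The DNAJA1 call was lost without the filter on low values, without the trend and without either DMSO library or JG342 replicate 2. Of 15 chaperones of the endoplasmic reticulum 5 rose and none fell, with a median of 0.25. CALR, the most abundant of them with DMSO, changed by −0.33 and did not pass (limma adjusted p 0.111). Both its JG342 libraries lay below both DMSO libraries. DNAJB9, a J-domain protein, HYOU1, an HSP70 relative, and SIL1, an exchange factor, rose by 0.99, 0.83 and 0.55 (limma adjusted p 0.00434, 0.00135 and 0.0101). The call of DNAJB9 was lost without the filter, and that of SIL1 without DMSO replicate 2.

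Of 11 mitochondrial matrix genes 2 rose and 2 fell, and the median was −0.02. The matrix protease LONP1 rose by 1.09 (limma adjusted p of 0.000414) and the mitochondrial HSP70 gene HSPA9 by 0.62 (0.00259). PPIF, a matrix peptidyl-prolyl isomerase, changed by −0.48 (limma adjusted p of 0.0115). PPIF did not pass without either DMSO library.

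**Figure D5:**
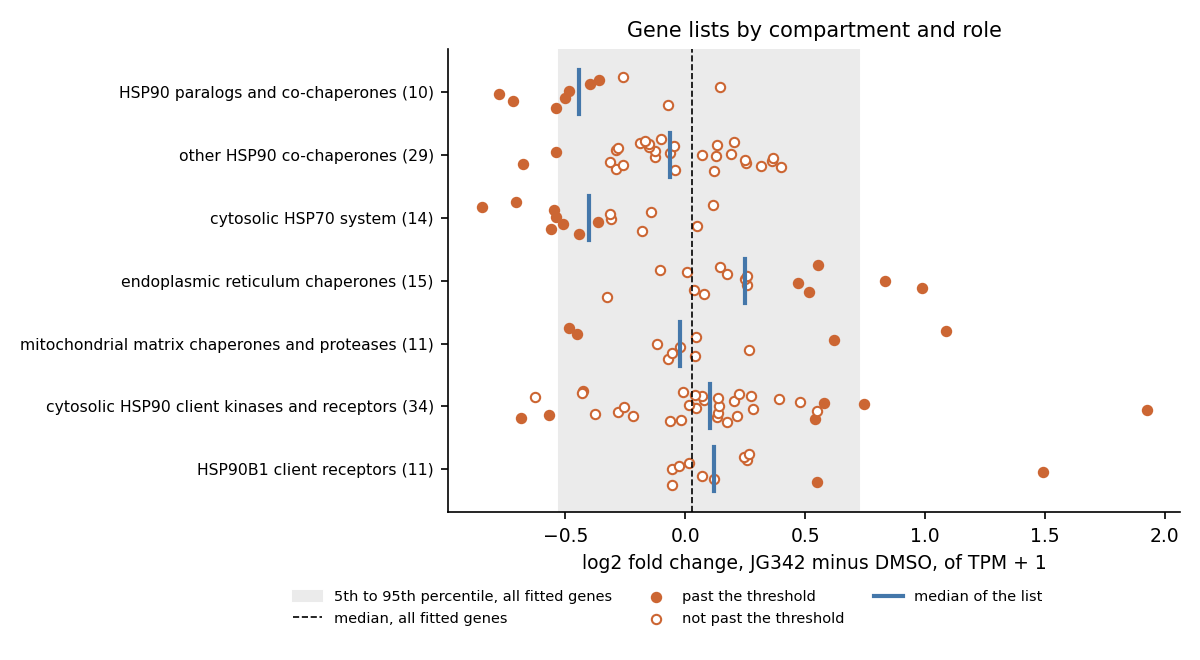
Log2 fold change of TPM + 1, JG342 minus DMSO, of each fitted gene in 7 lists. Height within a list has no meaning, blue lines are list medians, filled points passed an adjusted p of 0.05, and the grey band holds the 5th to 95th percentiles of all fitted genes, from −0.53 to 0.72. The medians of the HSP90 genes and of the cytosolic HSP70 system, −0.44 and −0.40, lie on the low side, and that of the endoplasmic reticulum, 0.25, on the high side.

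In each compartment HSP90 can be set against the HSP70 gene that works beside it, a comparison chosen after the values were seen. The log2 ratio of the cytosolic pair to HSPA8 was −0.07 and −0.13 with DMSO and −0.27 and 0.07 with JG342, and the treatments overlapped (exact permutation p 1). The log2 ratio of TRAP1 to HSPA9 was −0.97 and −1.03 with DMSO and −1.88 and −1.89 with JG342, a difference of −0.88. That of HSP90B1 to HSPA5 was 1.57 and 1.33 with DMSO and 1.24 and 1.01 with JG342, a difference of −0.33. The last 2 did not overlap, each with an exact permutation p of 0.333, or 0.5 after adjustment over 3 ratios. HSPA5 alone changed by 0.47 (limma adjusted p 0.0158) and HSP90B1 by 0.14, which did not pass, so neither was lower with JG342. The HSPA5 call was lost in some alternatives, such as without the filter on low values.

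The genes with the most similar profile over the 4 libraries were found among 8326 others with a mean of at least 10 TPM, by the Euclidean distance between log2(TPM + 1) values centred on each gene's mean. For HSP90AA1 they were UTP20, CXCR4 and SLF1, at distances of 0.056, 0.083 and 0.085. CXCR4, a chemokine receptor, stood at 38.8 and 36.0 TPM with DMSO and at 22.2 and 22.1 TPM with JG342. For HSP90AB1 they were STEAP3, TRPV3 and MTHFD1, an enzyme of folate metabolism, at 0.022, 0.025 and 0.029. For HSP90B1 they were FAM208A, RAD54L2 and TYW1, at 0.011, 0.012 and 0.016. For TRAP1 they included PRC1, a protein of the mitotic spindle midzone, and AKAP8, at 0.025 and 0.028. PRC1 stood at 73.2 and 72.9 TPM with DMSO and at 59.9 and 61.8 TPM with JG342. The lists of the 4 paralogs shared no gene, which follows from the unequal changes of the paralogs and is no separate result.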

How the data were processed

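The authors deposited 1 value per gene and library, with a gene symbol and a RefSeq mRNA accession. The unit is not named; the deposited values were taken as TPM from their sums, which are nearly equal in all libraries. Bowtie2 2.2.5, HISAT2 2.0.4 and RSEM 1.2.12 are named in the submitters' processing notes, and the genome build and annotation are not given in the sources used here. Genes averaging 1 TPM or more across the 4 libraries (12042) entered a fit of log2(TPM + 1) with limma 3.58.1 in R 4.3.3 (treatment as the only term, eBayes with a mean-variance trend, two-sided, Benjamini-Hochberg over all fitted genes, threshold 0.05). A fold change on this scale understates changes of low genes. TPM keeps no depth, and the number of libraries limits the precision.

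Replicates were grouped by title. Paralog ratios used exact permutation tests (scipy 1.17.1). Near-identical transcripts were searched in GENCODE 29 with BLAST 2.17.0, at 95% identity over at least 20% of the transcript. The genes described, the lists, the motifs and the tests were chosen with earlier results of these data known. Of each list the 3 called genes with the largest change are named, or the 3 most abundant where none was called. CNPY3, ST13, HSPA8, HSPA5, CALR, DNAJB6, ITGB7, HSPD1, CRELD2, PDIA6, CANX and XBP1 were named after their values were seen. Some genes that these rules select are not reported here. Alternatives were other pseudocounts, filters, scalings and variance models, a replicate block, and leaving out each library.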

Additional observations from a re-analysis of the deposited data

How the results depend on the processing

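Changes of pseudocount (0.1 or 5) moved no count by more than 1.5 times. Of the 10 genes, 4 were lower both without the filter on low values and without the mean-variance trend, against 7, and 3 to 6 when each library was left out. Over all genes, 533 were higher and 295 lower without the filter, and 526 lower without the trend, against 1304 and 917. Leaving out a library gave 575 to 1107 higher and 192 to 718 lower. Among the other co-chaperones 2 were lower and none higher. With median scaling 4 were lower, and with a minimum mean of 5 TPM 1 (FLCN) was higher. Leaving out a library gave 0 to 1 higher and 1 to 2 lower.

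Same-numbered libraries deviated together from their treatment means only modestly (Pearson r 0.27 over 12042 genes), and their descriptions share a prefix across treatments, although the labels do not say what the prefix or the number stands for. In the fit that took the replicate number as a block 2316 genes were higher and 1891 lower, 8 of the 10 genes (TRAP1 in addition) were lower, and 5 other co-chaperones were higher and 6 lower. With the block and median scaling 2310 genes were lower, and 1 other co-chaperone was higher and 7 lower. The block left 1 residual degree of freedom, so the variance of each gene came largely or wholly from the trend over all genes. The calls under the block deserve caution, and the cause of these differences was not tested. The paralog ratios kept their direction with a pseudocount of 1 and without each library, which was added after the data were seen.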

Other observations

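Proteins that depend on HSP90 for folding were listed by paralog. Of 38 client kinases and receptors of the cytosolic paralogs 34 were fitted, of which 4 rose and 3 fell, near the 10.8% higher and 7.62% lower over all fitted genes. Their median log2 fold change was 0.10 against 0.03 over all fitted genes. ERN1, the kinase and ribonuclease that senses stress in the endoplasmic reticulum, rose from 54.6 and 48.0 TPM to 209 and 186 TPM, a log2 change of 1.92 with an SE of 0.11 (limma adjusted p 3.76e-05). INSR, the insulin receptor, rose from 16.4 and 16.3 TPM to 30.8 and 25.6 TPM, a log2 change of 0.74 with an SE of 0.13 (limma adjusted p 0.00718). CDK2, a kinase of the cell cycle, changed by −0.68 with an SE of 0.14 (limma adjusted p 0.0103), and its call was lost without the filter on low values and without DMSO replicate 2.

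Of 16 client receptors of HSP90B1 14 were in the table and 11 fitted. Of the 11, 2 rose and none fell, beside 10.8% higher and 7.62% lower over all fitted genes. The 2 were ITGAL and ITGB2, the subunits of a leukocyte integrin. ITGAL stood at 53.9 and 49.9 TPM with DMSO and at 78.2 and 74.7 TPM with JG342, a log2 change of 0.55 with an SE of 0.10 (limma adjusted p 0.00852, lost without DMSO replicate 2). ITGB2 was far lower, at 1.15 and 0.22 TPM with DMSO and 2.40 and 5.10 TPM with JG342, and its log2 change of 1.49 with an SE of 0.34 (limma adjusted p 0.0180) was lost without DMSO replicate 2, without JG342 replicate 2 and without the filter. With a minimum mean of 5 TPM it was not fitted. ITGB7, the most abundant client listed, stood at 9828 and 8483 TPM with DMSO and at 10037 and 7697 TPM with JG342, where the treatments overlapped.

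Among the 11 plasma cell markers 3 rose and 2 fell, beside 10.8% higher and 7.62% lower over all fitted genes. CD27 rose by 0.89 and IRF4, a transcription factor on which myeloma cells depend, by 0.77, and JCHAIN, the joining chain of secreted antibodies, changed by −0.86 (limma adjusted p 0.0185, 0.000986 and 0.00117). The CD27 call was lost without the filter and without DMSO replicate 1 or JG342 replicate 2. Of the markers of other cell types 5 were fitted and none passed with limma after adjustment, while 2 of them, HBB and CD3E, had an unadjusted p under 0.05. HBB, with a limma adjusted p of 0.0521, passed with a pseudocount of 5, with a minimum mean of 5 TPM and in both fits with the replicate block. CD3E passed with the replicate block and without JG342 replicate 1. The 3 most abundant were LYZ at 37.0 and 45.1 TPM with DMSO and 46.2 and 39.0 TPM with JG342, HBB at 8.19 and 7.34 and at 10.95 and 11.4 TPM, and CD3E at 5.49 and 7.70 and at 5.26 and 3.21 TPM.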
